A study of Mus musculus with 3 samples.

Results

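Peaks of 5-hydroxymethylcytosine (5hmC) that lie deep inside long genes were examined in mouse bone marrow cells. A peak counted as deep when its midpoint lay in an autosomal protein-coding gene and more than 50 kb from both ends of it, after overlapping genes had been merged into 1 block. Of the 207188 distinct autosomal peaks in the list, 23711 met this rule, which is 11.44% (95% Wilson interval 11.31 to 11.58). They lay in 1658 of the 2338 gene blocks long enough to have such a zone. The rule used position alone and no measured value of a peak.

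5hmC is the product of TET enzymes, which oxidise the methyl group of 5-methylcytosine, the mark written by DNA methyltransferases such as DNMT3A. Mutant IDH2 makes 2-hydroxyglutarate, a metabolite that inhibits TET enzymes. In many tissues 5hmC is known to lie along the bodies of transcribed genes and at enhancers. Long genes are of use for seeing this, because their interiors lie far from both ends.

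The series held 1 sample of normal BM cells and 2 samples of NIDF-AML, an acute myeloid leukaemia driven jointly by 4 alleles: FLT3-ITD, NPMc, IDH2/R140Q and DNMT3A/R882H. All 3 were labelled bone marrow cells. The number of mice, their age and strain, and the way the alleles were introduced are not given in the sources used here. In each sample 5hmC was coupled to biotin through an azide-bearing glucose, captured on avidin and sequenced.

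Peaks came from the lists that go with the 2 NIDF-AML samples. A list of normal BM was not analysed here. All 223267 lines of one list were also in the other, so both were counted as 1 list. Both lists named the library with index 4 as the treated library, against index 5 in replicate 1 and index 6 in replicate 2. Which sample carries index 4 is not given, nor what the control libraries with indexes 5 and 6 are. If a control is another 5hmC sample, a listed peak is an excess over that sample. No value below can therefore be read as leukaemia against normal marrow, and no value has a spread between replicates. A line gives a position and no height, and read depth is unknown. The lack of a peak therefore means only that none was listed. In such bulk marrow, fewer cells with 5hmC at a site and less 5hmC per cell cannot be told apart.

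Sequence could be read only for peaks that fall just before a transcript start in the RefSeq promoter table. Of the 23711 deep peaks, 57 lay wholly within the 250 bases before such a start, and 18 of these were before a start of the very gene that held them, an internal promoter. The 9 sequences below are chosen examples of the 57, at internal starts of genes and at starts of noncoding RNAs inside other genes. They are RefSeq sequence (GRCm38.p6, the assembly of mm10), read 5′ to 3′ on the strand of the gene that starts there. Each CpG, the dinucleotide at which 5hmC mostly occurs, is in capitals.
Esr1 internal start, chr10:4710009-4710147, plus strand: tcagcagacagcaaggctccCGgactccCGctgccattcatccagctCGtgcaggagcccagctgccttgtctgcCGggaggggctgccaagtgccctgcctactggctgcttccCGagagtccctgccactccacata
Slc24a3 internal start, chr2:145242384-145242544, plus strand: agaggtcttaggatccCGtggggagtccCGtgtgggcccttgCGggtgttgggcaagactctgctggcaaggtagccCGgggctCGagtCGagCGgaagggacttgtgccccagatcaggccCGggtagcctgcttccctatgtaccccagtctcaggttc
Ptprr internal start, chr10:116177256-116177320, plus strand: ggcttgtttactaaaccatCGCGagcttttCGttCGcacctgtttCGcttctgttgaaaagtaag
Trak1 internal start, chr9:121403368-121403416, plus strand: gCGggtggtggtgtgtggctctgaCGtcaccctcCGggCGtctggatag
Foxp1 internal start, chr6:99266544-99266608, minus strand: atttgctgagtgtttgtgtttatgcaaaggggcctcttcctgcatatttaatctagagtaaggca
Mef2c internal start, chr13:83573472-83573536, plus strand: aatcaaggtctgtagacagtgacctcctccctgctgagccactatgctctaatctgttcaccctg
Gm52296 start inside Prkce, chr17:86243400-86243480, minus strand: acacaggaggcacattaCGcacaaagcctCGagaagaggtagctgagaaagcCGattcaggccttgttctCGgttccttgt
Dnm3os start inside Dnm3, chr1:162217456-162217552, plus strand: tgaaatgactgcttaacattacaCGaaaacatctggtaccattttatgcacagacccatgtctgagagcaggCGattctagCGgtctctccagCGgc
Dnmt3aos start inside Dnmt3a, chr12:3862431-3862487, minus strand: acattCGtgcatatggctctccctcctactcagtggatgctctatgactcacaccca

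These peaks ranged from CpG-dense to free of CpG. The Trak1 peak, at a gene for a mitochondrial transport adaptor, held 4 CpGs in 49 bp, and the Ptprr peak, at a gene for a receptor tyrosine phosphatase, held 5 in 65 bp. The Foxp1 and Mef2c peaks held none, although both are transcription factor genes active in blood. Of the 57 peaks, 43 had at least 1 CpG (75.44%, Wilson interval 62.9 to 84.77), against 79.75% (76.84 to 82.38) of the 805 peaks before starts elsewhere. The 1334 promoter windows in deep zones, which are longer than the peaks, held one in 91.08%. The median was 2.04 CpGs per 100 bp in the 57 peaks, 2.47 in the other promoter peaks and 1.2 in the deep windows. Pooled over all bases, the deep peaks held 2.61 CpGs per 100 bp and the deep windows 2.45. Peak ends carry a rounding of up to several bases on most of the genome, so a CpG at an edge may have been missed. Peak calling was set for fragments of 200 bp, longer than these intervals. The captured 5hmC may therefore lie outside the bases counted, also at Foxp1 and Mef2c.

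More than 50 kb inside long genes, peaks were fewer per length than over the autosomes as a whole. The deep zones cover 366.7 Mb, which is 15.26% of autosomal length, and held 6.47 peaks per 100 kb (exact Poisson interval 6.38 to 6.55). The outer 50 kb at each end of the same blocks held 13.5 per 100 kb, with 31481 peaks in 233.8 Mb. Sequence more than 50 kb outside any protein-coding gene held 2.08 per 100 kb. The deep density was thus 0.750 times that of the autosomes (interval of the rate ratio 0.740 to 0.760). With the line at 25 kb instead, this ratio turned to 1.022 (1.012 to 1.032). With the line at 50 kb, deep density was 3.11 times that of sequence far from genes (3.05 to 3.17). Against the outer zones it was 0.480 times (0.472 to 0.488).

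The contrast with the outer zones was much smaller within single blocks than over all blocks pooled. Combined within blocks, the Mantel-Haenszel ratio of deep to outer density was 0.896. The 920 blocks with up to 50 kb of deep zone held 17.0 peaks per 100 kb deep and 17.6 outer, a ratio of 0.968 with an interval that includes 1 (0.932 to 1.005). Blocks with 200 to 400 kb of deep zone held 6.82 deep and 7.66 outer, a ratio of 0.890 (0.849 to 0.933). The 74 blocks with over 800 kb held only 0.778 deep and 1.76 outer, a ratio of 0.443 (0.366 to 0.539). Outer density thus fell with block length as deep density did. The ratio was 0.874 or more in each class up to 400 kb and 0.591 between 400 and 800 kb. Intervals treat peaks as independent, which they are not, so they are too narrow.

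**Figure D1:**
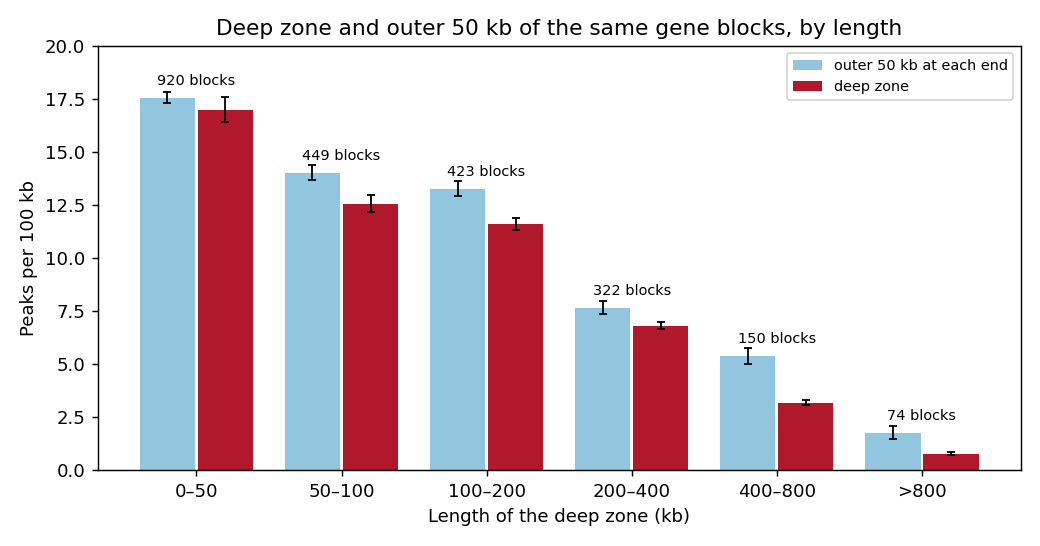
Peaks per 100 kb (vertical axis, from 0) in the outer 50 kb at each end (blue) and in the deep zone (red) of the same gene blocks, by length of the deep zone in kb. Bars are pooled densities with exact 95% Poisson intervals, and the number of blocks stands above each pair. Both densities fall with length, from 17.6 outer and 17.0 deep at up to 50 kb to 1.76 and 0.778 above 800 kb.

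Density in the deep zone followed density at the block's own ends. Over the 1418 blocks with at least 50 kb of deep zone, Spearman's rank correlation between deep and outer density was 0.852, and it was 0.647 between deep density and the number of peaks in the 50 kb on either side of the block. With deep length it was -0.232. These values are across genes, which share 1 library and are not replicates, so they are descriptions. Blocks with a deep peak had a median of 12 outer peaks, and the 680 blocks without one had a median of 1. Among those 680, 302 (44.41%) had no outer peak either, against 163 (9.83%) of the blocks with a deep peak.

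A small number of genes held most deep peaks. Of all deep peaks, 50% lay in 178 blocks (7.61% of blocks) and 90% in 767. Foxp1, a forkhead transcription factor needed for B cell development, held the most: 296 deep peaks in a deep zone of 497.4 kb (chr6:98925342-99522746). That is 59.5 per 100 kb, against 44 per 100 kb in its outer zones. Gse1, a coiled-coil protein listed with chromatin regulators, had 200 deep peaks in 260.6 kb (chr8:120228501-120581383). Prkce, protein kinase C epsilon, followed with 173 in 390.1 kb (chr17:86167785-86657919).

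The other genes of the 15 with most deep peaks had varied roles. Foxn3, a forkhead repressor, held 171 deep peaks, and Tiam1, an exchange factor for Rac, held 164. Arid1b, a subunit of the SWI/SNF remodelling complex, held 155. Arhgap26, a GTPase-activating protein, held 149, and Asap1, which turns off the GTPase Arf, held 127. Bach2, a transcriptional repressor in B and T cells, held 119 in 247.7 kb. Maml3, a coactivator of Notch, held 115, and Msi2, an RNA-binding protein of blood stem cells, held 112. Igf1r, the receptor of insulin-like growth factor 1, held 108 in 181.4 kb. Zfhx3, a homeodomain transcription factor, held 124. Wwox, an oxidoreductase at a common fragile site, held 164, and Slc39a11, a zinc transporter, held 132.

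Per length the order was different. Cmip, an adaptor of immune cell signalling, was densest, with 99 deep peaks in 104.5 kb, or 94.8 per 100 kb (chr8:117257019-117461506). Aff1, a subunit of the super elongation complex, held 85.8 per 100 kb, from 54 peaks in 63.0 kb. Zmiz1, a coactivator of Notch1, held 82.7, and Med13l, of the Mediator kinase module, held 80.9. Mbnl2, a splicing regulator, held 80.3. Etv6, an ETS repressor needed by blood stem cells, held 78.1 from 105 peaks. Ptprj, the receptor phosphatase CD148, held 77.9. Runx1, a master regulator of blood formation, held 71.4 from 89 peaks in 124.6 kb (chr16:92601466-92826074). The outer zones of these 12 genes were dense too, at 54 to 95 peaks per 100 kb. Runx1 had 95 outer peaks and Cmip had 83. With 43 to 105 peaks a gene outside Gse1, the Poisson intervals of neighbours in this order overlap.

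**Figure D2:**
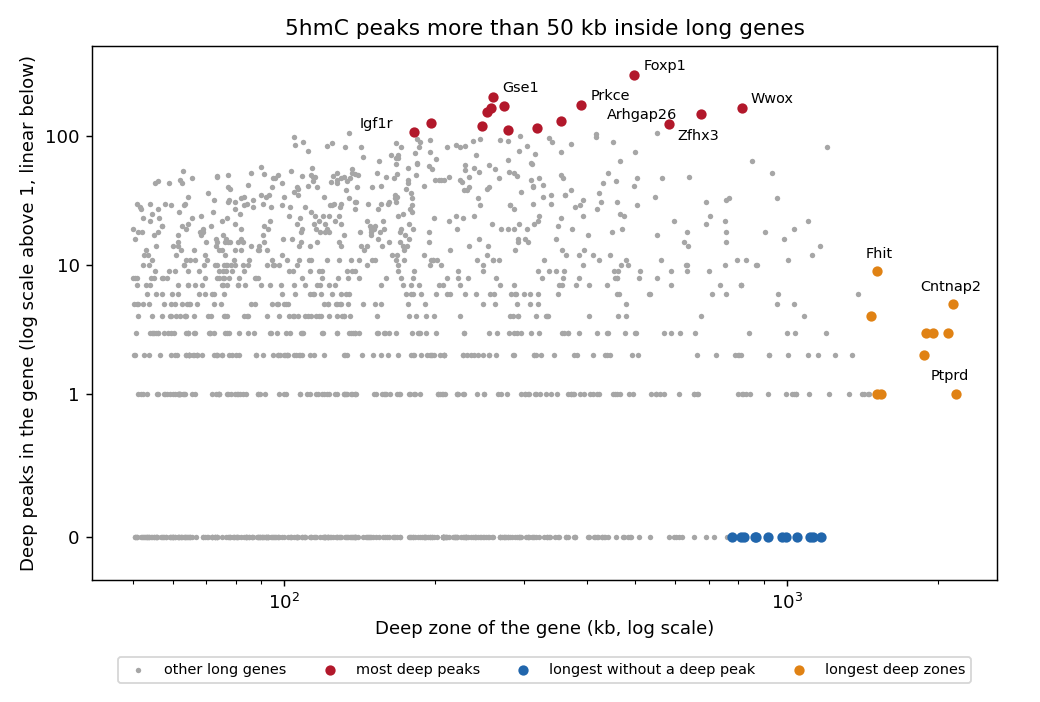
Each point is 1 of the 1474 long genes with at least 50 kb of deep zone: length of the deep zone (kb, log scale) against its number of deep peaks (log scale above 1, linear below). Red marks the 15 genes with most deep peaks, blue the 12 longest with none and orange the 10 longest of all. The red genes lie between 181.4 and 813.1 kb, while no orange gene exceeds 9 peaks.

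The very longest genes were nearly empty. Ptprd, a receptor phosphatase of synapses, had 1 deep peak in 2171 kb (chr4:75941237-78211742). Cntnap2, a neurexin-like adhesion protein of axons, had 5 in 2141 kb. Lsamp, Lrp1b and Macrod2 had 3 each in 2097, 1958 and 1898 kb, and Nrxn3, a presynaptic receptor, had 1 in 1512 kb. Dlg2, a scaffold of the postsynaptic density, had 2, Csmd1 had 1 and Ctnna3, an alpha-catenin, had 4. Fhit, a diadenosine hydrolase at a fragile site, had the most of the 10 longest, 9 peaks in 1512 kb or 0.595 per 100 kb.

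Many long genes held no deep peak at all. Of the 2312 long genes with any deep zone, 1638 had at least 1 deep peak, a share of 70.8%, and 674 had none. With at least 50 kb of deep zone, 1130 of 1474 had one, a share of 76.7%, and 344 had none. The 12 longest of these 344 were Cntn5, Tenm2, Csmd3, Cdh12, Dcc, Erbb4, Sgcd, Epha6, Cadm2, Grm7, Nlgn1 and Pcdh9. Most are adhesion or guidance molecules of neurons, such as the netrin receptor Dcc and the synaptic neuroligin Nlgn1, while Sgcd is a sarcoglycan of muscle. None of the 12 had an outer peak either. Cntn5 had 0 peaks in 1171 kb of deep zone (chr9:9634223-10904775), a count that allows up to 0.256 per 100 kb at 3 peaks, and Pcdh9 had 0 in 779.1 kb, which allows up to 0.385.

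Among the longest genes, Wwox was dense and a few others had moderate density. Of the 75 genes with over 800 kb of deep zone, 64 had a deep peak, but 54 had at most 5, and the median was 0.161 per 100 kb. Named after their values were seen, 4 of the 75 had most deep peaks and together held 362 of their 665 deep peaks. Wwox had 164, or 20.2 per 100 kb. Pde4d, a phosphodiesterase that degrades cyclic AMP, had 82 in 1202 kb, or 6.82 per 100 kb. Sox5, a transcription factor of the SOX family, had 64 in 853.9 kb, or 7.50, and Lrmda had 52 in 936.6 kb, or 5.55. The last 3 are near the density of all deep zones pooled, 6.47. For comparison, the median was 5.32 per 100 kb in genes with 50 to 100 kb of deep zone, 3.89 with 100 to 200 kb, 1.34 with 200 to 400 kb and 0.847 with 400 to 800 kb.

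Long genes were then described by 12 lists, of which 357 genes have at least 50 kb of deep zone and 44 named genes stand in more than 1 list. Over all 1474 such genes the median density was 2.56 deep peaks per 100 kb (quartiles 0.150 and 11.7). Of the 1474, 1130 (76.7%) had a deep peak, the share to set beside the count of each list below. Lists of blood cells, of transcription and chromatin regulators, of kinases and of matrix or cytoskeleton lay above this median. Lists of neuronal genes, ion channels, fragile sites and endothelium or stroma lay below it. The lists also differ in length, and the part that length plays in their medians was not tested. They were chosen with earlier results of these data known, so a high or low median may partly reflect that choice. The kinase list, for example, holds Tiam1, Asap1 and Cmip, and the chromatin list holds Gse1. The list values are descriptions only.

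All 24 myeloid and stem cell genes had a deep peak, with a median of 27.8 per 100 kb at a median deep length of 168.8 kb. Etv6, Ptprj and Runx1 led, followed by Cdk6, the cell cycle kinase, with 58 peaks or 64.4 per 100 kb. Tbxas1, thromboxane synthase, held 82 deep peaks, or 48.1 per 100 kb, against 22 per 100 kb in its outer zone. At the low end, Mecom, a stem cell transcription factor that is an oncogene in myeloid leukaemia, held 6 in 458.5 kb, or 1.31 per 100 kb. Plcb1, a phospholipase C, held 1.19 and Slc8a1, a sodium-calcium exchanger, 1.13. A gene's place in this list thus did not fix its density, which spanned 1.13 to 78.1.

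All 10 genes of the B lineage list had a deep peak as well, with a median of 21.4 per 100 kb. After Foxp1 and Bach2 came Prkcb, protein kinase C beta of the B cell receptor pathway, with 95 peaks or 38.7 per 100 kb. Ebf1, which specifies B cells, held 49 in 290 kb, or 16.9, and Pax5, which keeps them committed, held 14 in 85.9 kb, or 16.3. Pax5 had more of its peaks outside, 34 in the outer zones. The lowest was Bank1, a B cell scaffold, at 6.37.

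The list of T and NK genes was lower and more divided, with a median of 3.85 over 10 genes. Fyn, a Src family kinase, held 49.1 per 100 kb, Prkch, protein kinase C eta, 42.3 and Cblb, a ubiquitin ligase, 29.9. Tox and Skap1 held 4.87 and 5.13, and Rora, Tnik, Inpp4b and Camk4 held 2.8, 1.9, 1.3 and 1.2. Themis, needed in T cell selection, had 0 deep and 0 outer peaks. In the list of megakaryocyte and erythroid genes, 10 of 11 had a deep peak and the median was 10.3. Tgfbr3, a coreceptor of TGF-beta, held 40.9. Sptb and Ank1, the spectrin and ankyrin of the red cell membrane, held 40.1 and 22.5, and Rab27b, of platelet granules, held none.

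All 30 blood transcription factor genes held a deep peak, with a median of 16.1 per 100 kb. Erg, an ETS factor of stem cells, held 40.8 from 52 peaks, and Tcf7l2, an effector of Wnt signalling, held 37.0. Klf12, a Krüppel-like repressor, and Nfib, a nuclear factor I protein, held only 1.56 and 0.858. Of 29 chromatin regulators, 27 had a deep peak, with a median of 17.4. Chd7, a nucleosome remodeller, held 50.0 and Hdac4, a class IIa deacetylase, 36.5. The histone methyltransferase Kmt2c had 1 deep peak in 127.1 kb but 10 outer ones. Asxl3, of the Polycomb deubiquitinase complex, and Kdm4c, a histone demethylase, had no deep peak.

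Kinases and GTPase regulators were the largest of the dense lists. Of 62 genes, 60 had a deep peak, and the median was 15.1 per 100 kb. Vav2, a guanine nucleotide exchange factor, held 71.8, Dgkh, a diacylglycerol kinase, 65.4 and Dock8, an exchange factor for Cdc42 in immune cells, 52.4. Myo9a, an unconventional myosin, and Prkd1, protein kinase D1, held none.

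Genes of matrix, cytoskeleton and muscle had a median of 5.70, with a deep peak in 37 of 47 (78.7%), near the 76.7% of all long genes. Within this list the cytoskeletal Svil held 29.3 and Sptbn1 27.5, and the basement membrane collagens Col4a2 and Col4a1 held 37.0 and 32.6. The 10 without a deep peak included the giant sarcomere protein Ttn, with 0 in 178.6 kb, and the fibrillar collagen Col11a1. In the list of endothelium and stroma, 16 of 20 (80%) had a deep peak, also near that share, and the median was 1.42. Itga9, an integrin, held 30.4 there and Flt1, a receptor of VEGF, 17.0, while Prex2 and Ebf2 held none.

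Neuronal lists were the lowest. Of 73 neuronal adhesion and guidance genes, 49 had a deep peak and 24 had none, with a median of 0.153 per 100 kb at a median deep length of 779.1 kb. Their outer zones had a median of 0. Nav2, a cytoskeletal navigator protein, stood apart with 106 deep peaks in 551 kb, or 19.2, and so did Dscaml1, a cell adhesion molecule, with 44 peaks or 19.5. Of 60 ion channel and synaptic receptor genes, 40 had a deep peak and the median was 0.270. Ano6, the scramblase that platelets use to expose phosphatidylserine, held 49.6 and Kcnn3, a calcium-activated potassium channel, 44.0. Cacna1d, a calcium channel, held 99 deep peaks in 418.2 kb, or 23.7. The glutamate receptor genes Gria1, Gria4, Grik1, Grik2 and Grin2a held none.

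Genes at common fragile sites, which are long and replicate late, had a median of 0.271 per 100 kb, although 24 of 27 held a deep peak. Their median deep length was 1085 kb. Wwox, at 20.2, was far above the next, Gpc6, a glypican, at 3.46. Dpyd, which degrades pyrimidines, held 0 in 770.8 kb.

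**Figure D3:**
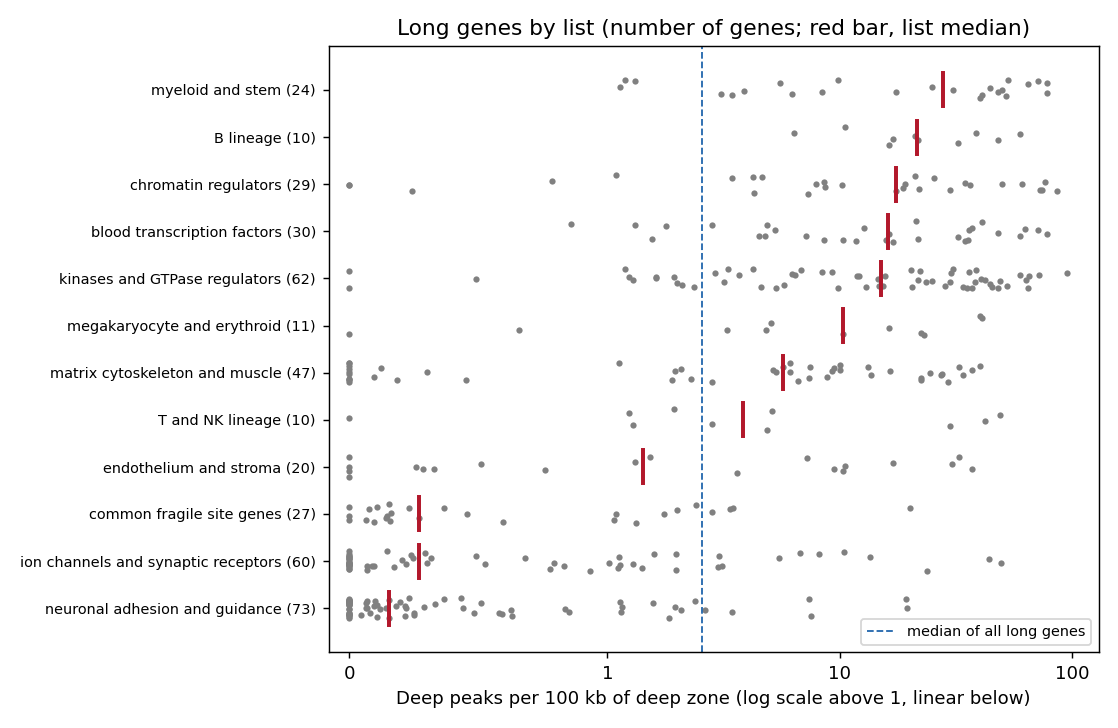
Deep peaks per 100 kb of deep zone (log scale above 1, linear below) for each long gene of the 12 lists, 1 grey point a gene, with the number of genes in brackets. The red bar is the list's median and the dashed line the median over all 1474 long genes, 2.56. Medians run from 0.153 for neuronal adhesion and guidance to 27.8 for myeloid and stem cell genes, and most lists hold both dense and nearly empty genes. The lists were chosen with earlier results of these data known.

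Among the genes that the labels of the study name, Dnmt3a and Meis1 are long enough to have a deep zone. Dnmt3a, the methyltransferase whose human form carries R882H in the leukaemia, had 6 deep peaks in its 12.9 kb of deep zone, beside 57 outer peaks. One of the 6 is the peak before the Dnmt3aos start printed above. Meis1, a homeobox partner of Hoxa9, had 4 deep peaks in 39.2 kb and 2 outer ones. Both deep zones are below the 50 kb set for a density.

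In some genes the deep zone and the ends differed. Among the 341 blocks with at least 100 kb of deep zone and 20 peaks in all, deep density was above outer density in 150, a share of 44%. The median ratio was 0.913, with quartiles 0.565 and 1.26. The interval of the ratio lay wholly above 1 in 33 blocks and wholly below 1 in 71. Most genes with many peaks thus had them on both sides of the 50 kb line.

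Within these 341 blocks, the highest ratio was that of Grik4, a kainate receptor subunit, with 34 deep peaks and 1 outer peak, a ratio of 10.4 (1.75 to 423). Zfhx3 had 124 deep and 5 outer peaks, a ratio of 4.26 (1.78 to 13.4). Prdm16, a histone methyltransferase family member of blood stem cells, had 19 and 2, a ratio of 4.29 (1.04 to 38.02). Fggy, a carbohydrate kinase, had 19 and 1, and Cdkal1, a tRNA-modifying enzyme, had 47 and 2. Hdac9, a class IIa deacetylase, had 33 and 1, with an interval that includes 1 (0.718 to 175).

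Within the same 341 blocks, the lowest ratio was that of Ptprm, a receptor phosphatase of cell contacts, with 9 deep peaks in 587.6 kb and 21 outer ones, a ratio of 0.0729 (0.0294 to 0.166). The merged block led by Cacna1c, a cardiac and neuronal calcium channel, had 6 and 15, and Hhat, which adds palmitate to Hedgehog proteins, had 3 and 18. The block led by Iqschfp had 9 and 13. Sdk2, an adhesion protein of retinal synapses, had 5 deep peaks, and all 24 of its outer peaks lay at one end. The merged block led by Wdfy4, needed for antigen cross-presentation, had 6 deep and 36 outer peaks.

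Extreme cases on both sides were picked after their values were seen. The block led by Bmp6, a bone morphogenetic protein, had 0 deep peaks in 83.1 kb and 17 outer peaks, all at one end. Greb1l had 0 in 138 kb and 9 outer, also at one end. In the other direction, Erc2, a scaffold of the presynaptic active zone, had 15 deep peaks and no outer peak, and none in the 50 kb on either side of the gene. The merged block led by Agbl4 had 14 and Auts2, a chromatin and cytoskeletal regulator of neurons, 11, again with no outer peak.

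**Figure D4:**
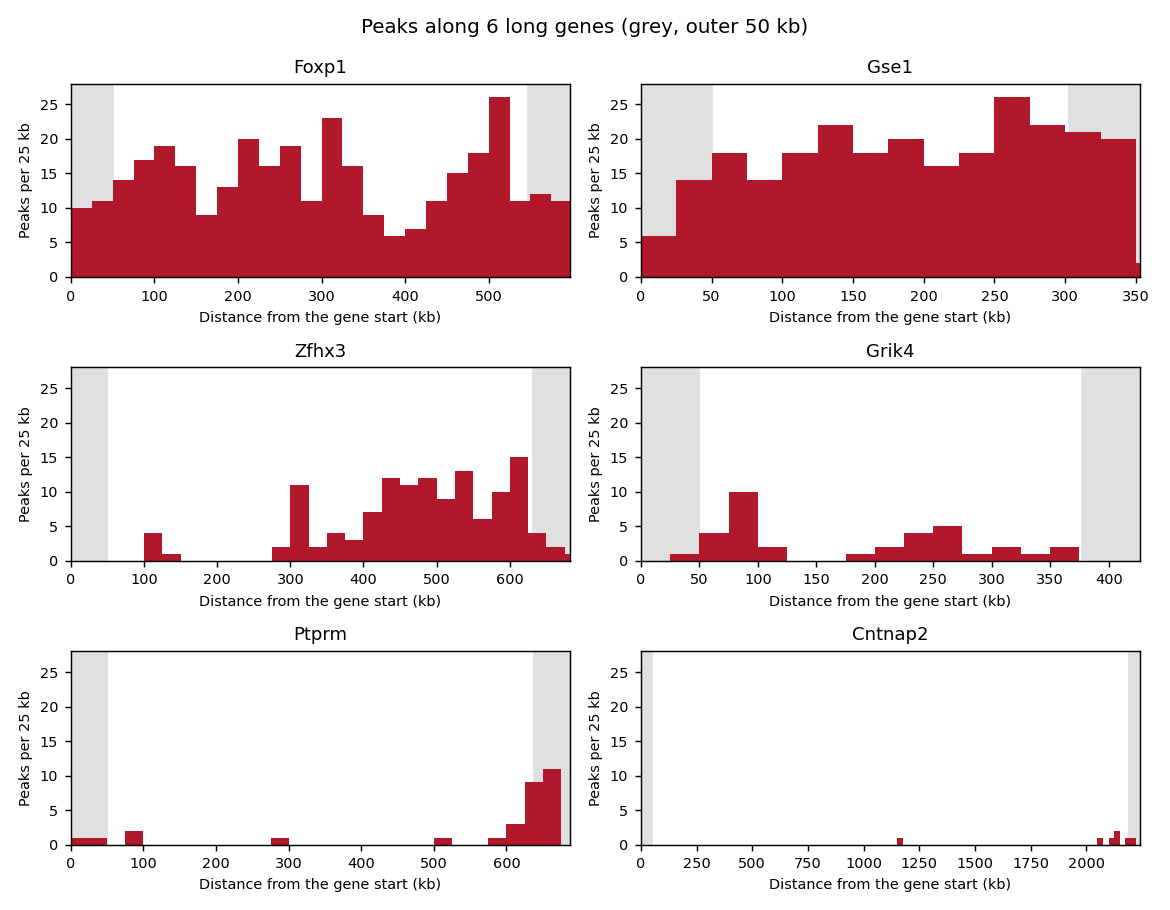
Peaks per 25 kb (vertical axis) by distance from the gene start (kb) in 6 long genes, with the outer 50 kb at each end in grey. Foxp1 and Gse1 have no empty bin, Zfhx3 has its peaks in the later part of the gene and Ptprm near its end, and 84 of the 90 bins of Cntnap2 are empty.

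Peaks were spread unevenly along the genes. Foxp1 had peaks in all 24 bins of 25 kb, with the most, 26, between 500 and 525 kb from its start. Gse1 likewise had no empty bin of 15 and a maximum of 26. Zfhx3 had 9 empty bins of 28 and its maximum of 15 between 600 and 625 kb. Grik4 peaked early, with 10 between 75 and 100 kb. Ptprm had 19 empty bins of 28, and its maximum of 11 lay between 650 and 675 kb, in the last part of the gene.

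Which end was denser depended on the genes taken. Strand was known for 1564 blocks through the promoter table. Their first 50 kb held 14.2 peaks per 100 kb and their last 50 kb 12.9, a ratio of 1.10 (1.07 to 1.13). In the 650 blocks over 200 kb long these were 9.81 and 9.61, with overlapping intervals, and the deep zone held 5.09. In 5 equal parts from start to end, the deep zones of these 650 held 5.46, 4.93, 4.81, 4.60 and 5.63 per 100 kb. The outermost of these parts were thus a little higher than the middle, but well below the outer 50 kb. The outer 50 kb counts each block equally, while these parts weigh long blocks more, so their densities are not directly comparable. Parts of this size cannot show whether density drops at the 50 kb line itself. In the 377 genes over 300 kb the end side was denser in each of the 5 bins of 10 kb up to 50 kb, with 8.12 in the last 10 kb (7.23 to 9.08) and 6.58 in the first (5.79 to 7.45), though the intervals of these overlap. In the same genes density was 4.88 between 40 and 50 kb from the start and 5.20 between 50 and 60 kb. From the end these values were 5.94 and 6.15, so no drop stood at the 50 kb line in these 377 genes.

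Deep peaks were denser near transcript starts nested inside the long gene. Within 500 bp of 1 of the 1334 listed starts they numbered 236, or 19.3 per 100 kb (16.9 to 21.9). Density was 16.0 at 500 to 2500 bp, 14.0 at 2500 to 10000 bp and 5.94 (5.86 to 6.02) farther away. Even so, 20460 deep peaks, 86.29% of all, lay over 10000 bp from any listed start. Inside long noncoding RNA genes that lie in a deep zone the density was 9.61 (9.13 to 10.1), against 6.32 (6.24 to 6.41) elsewhere. Exons and introns could not be told apart here.

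Of 919 autosomal miRNA hairpins in the RefSeq table, 68 lay in a deep zone, and 16 of these were within 500 bp of a deep peak. Density within 500 bp of a hairpin was 18.5 per 100 kb, from 13 peaks, and within 5 kb it was 12.6, from 78. All deep zones pooled held 6.47. The count of 13 is small, and hairpins close together can share a peak. Some of these hairpins lie in peak-dense genes such as Foxp1 and Zmiz1, and the part played by the host gene was not tested. A deep peak overlapped 3 hairpins, among them Mir6391 in Abcc4, a drug and nucleotide exporter. The cluster of Mir23b, Mir27b and Mir24-1 in Aopep, an aminopeptidase, lay 459, 232 and 112 bp from one. Mir199a-2, transcribed in Dnm3os against the direction of Dnm3, lay 262 bp from the peak before the Dnm3os start. Mature sequences of Mir6391, Mir27b, Mir24-1 and Mir199a-2 are given to show which miRNAs lie beside deep peaks, with the seed, bases 2 to 8, in capitals. No 2 of them share a seed.
mmu-miR-6391: uGAGGCACgggaggacaaugu
mmu-miR-27b-3p: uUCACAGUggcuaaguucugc
mmu-miR-24-3p: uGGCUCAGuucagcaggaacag
mmu-miR-199a-5p: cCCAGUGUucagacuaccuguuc
mmu-miR-199a-3p: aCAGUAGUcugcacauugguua

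Single deep peaks were short and came in groups. Their median width was 65 bp (quartiles 49 and 81), the same as in the outer zones. The median distance to the next peak was 1168 bp, against 1056 bp in the outer zones and 1576 bp far from genes. Another peak lay within 1 kb of 44.73% of deep peaks, and 4.14% had none within 20 kb, against 11.44% of the peaks far from genes. The tightest groups of 5 deep peaks spanned 1561 bp in Arhgap26, 1593 bp in Cdh23, 1617 bp in Baz2b and 1697 bp in both Aff1 and Mical3. Long empty runs were the other extreme: 1598 kb in Ptprd and 1406 kb in Rbfox1, a neuronal splicing regulator. Even Nrg1, the neuregulin 1 gene with 19 deep peaks in its block, had a run of 849.1 kb without one.

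The threshold of 50 kb divided a continuous series of peaks. The nearest on the inside lay 50001 bp from a block end in Nfkb1, 50003 bp in Vps35l and 50004 bp in Tmem108. The nearest on the outside lay at 49993 bp in Gm16867, 49991 bp in Septin11 and 49989 bp in Nxn. Positions are rounded by up to several bases, so the side of the line is uncertain for the closest of these. Within 1 kb of the line there were 583 peaks inside and 584 outside. The median deep peak lay 81.2 kb from the nearest block end, and the farthest lay 1077 kb inside Cntnap2.

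Every autosome held deep peaks. Their density was highest on chromosome 17, at 9.89 per 100 kb of deep zone, and lowest on chromosome 1, at 4.69. It was below the density of the whole chromosome on 17 of the 19 autosomes. The exceptions were chromosome 13, at 1.01 times, and chromosome 18, at 1.00 times.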

How the data were processed

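Captured 5hmC fragments were read from both ends by Illumina HiSeq2000 sequencing, per the labels' protocols. The deposited lists hold other values than measurements: a start and an end position per peak, on mm10 per the submitters' processing notes. Per the file headers, the authors called peaks with PICS, set for 99 bp reads from 200 bp fragments and a 250 bp window sliding in steps of 20 bp. The minimums of forward and reverse reads were 3 for a window and 10 for a region. The headers also give a maximum of 5 binding sites per gene. How this was applied is not given, and genes such as Foxp1, with 296 deep peaks, held more. The aligner and any score threshold are not given in the sources used here. Starts were taken to count from 0, judged from the pattern of rounded positions, and were raised by 1. The lists do not state this. Most positions are rounded: 87.8% of the starts and ends of deep peaks are multiples of 4 bp and 71.3% multiples of 8 bp.

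Repeated lines were counted once, leaving 208468 intervals, of which 1280 on X and Y were not used. Among deep peaks 924 had a repeated line. Genes came from the RefSeq table of GRCm38.p6, without exons: 20560 autosomal protein-coding genes with a start beyond 3 Mb, merged into 18527 blocks. Of the deep peaks, 442 lay in 2 or more genes. Densities of single genes need at least 50 kb of deep zone, and a gene counted as long above 100 kb. Intervals are exact Poisson, Wilson or exact conditional intervals at 95% and cover counting error only. With 1 list there was no test over samples. Named genes were to be the 15 with most deep peaks, the 12 densest, the 12 longest without one, the 10 longest, the 6 highest and 6 lowest ratios, and for each list the 4 densest, the 4 least dense and the empty genes. Of the densest and of the lists only examples are printed, and some list genes outside the rule, such as Tbxas1 and Ebf1, were chosen after their values were seen; 1 of the densest genes is not reported here. The members and lists were chosen with earlier results of these data known. Of 563 listed genes 553 were found. Python 3.11.15, numpy 2.4.6, pandas 2.3.3 and scipy 1.17.1 were used, and the counting was tested on simulated data.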

Additional observations from a re-analysis of the deposited data

How the results depend on the processing

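With a line at 25 kb there were 47013 deep peaks, the ratio to the autosomes turned to 1.022, the ratio to the outer zones was 0.540 and the median over long genes 4.90 per 100 kb. With a line at 100 kb these were 8271, 0.439, 0.428 and 1.05, and 63.8% of long genes held a deep peak. Against sequence over 50 kb outside genes, the deep density was 3.11 times as high. Keeping repeated lines gave 0.730 against the autosomes and 0.469 against the outer zones, and each gene's own ends gave 0.731 against the autosomes. Leaving out sequence within 5 kb of gene ends gave 0.902 and 0.491. The ratio to the outer zones was 0.496 with an outer zone from 10 to 50 kb and 0.717 as the median over blocks. It was 0.613 in blocks with at least 10 peaks, 0.455 without the 10 blocks with most deep peaks and 0.896 combined within blocks, 3 alternatives chosen after seeing the data. With at least 50 kb of deep zone, 76.7% of long genes held a deep peak. The median per 100 kb was 3.33 in genes with at least 20 kb and 1.79 with at least 100 kb. The causes of these shifts were not tested, except that fewer genes and another zone enter by construction. In every alternative run, 8 of 12 lists lay above the median of all long genes, and 72 list medians stayed within the set range while 12 moved. Most of the moves came with the line at 100 kb. There the myeloid and stem cell median fell to 12.7, that of kinases to 6.63 and that of megakaryocyte and erythroid genes to 2.25. The B lineage list was then the highest, at 19.4, so the order of the lists depends on the line. The 72 include all medians from the runs that left out either replicate. Those could not move, because both replicates hold the same list, so they say nothing on stability. No paired analysis was possible because both replicates hold the same list. Depth and the identity of the control libraries are unknown. At genes without a peak, shallow sequencing, absent 5hmC and similar signal in the control cannot be told apart.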
